A study of Mus musculus with 32 samples.

Results

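Ctss, C1qb, Lcn2, Lgals1 and Tap1 are 5 genes of macrophages and innate inflammation, compared here between 4 tissues of mice without Nox4, an NADPH oxidase that makes hydrogen peroxide. They are 5 of 9030 named genes on the array and were measured by 7 of its 20794 probes: Lcn2 and Lgals1 had 2 probes each and the others 1. The genes were picked with the knockout ratios of these same arrays known, so the ratios against the wild-type pool are given as a description and carry no test. Only some of the set are macrophage genes in the narrow sense: Ctss and C1qb are, Lcn2 is chiefly a neutrophil and epithelial gene, and Lgals1 and Tap1 are made by many cell types.

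Cathepsin S (Ctss) is a lysosomal protease of macrophages, microglia and other antigen-presenting cells that trims the invariant chain on MHC class II molecules. C1qb is a chain of C1q, which starts the classical complement pathway and is made mostly by tissue macrophages and microglia. Lipocalin 2 (Lcn2) binds bacterial siderophores and is released from neutrophil granules and inflamed epithelia, galectin 1 (Lgals1) is a secreted lectin that binds galactose-bearing glycans, and Tap1 is a subunit of the transporter that carries peptides into the endoplasmic reticulum for MHC class I. Interferon gamma is a well known inducer of Ctss and Tap1.

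The knockout animals were 4 male Nox4 -/- mice on a C57BL/6 background, aged 17 weeks, and each gave brain, kidney, muscle and pancreas. Each tissue of each animal was hybridised on 2 cDNA arrays with Cy3 and Cy5 exchanged, against 1 RNA pool from wild-type males of the same strain and age; the design text and the labels give 4 mice for the pool and the labelling protocol 6. A value is the log2 ratio of knockout over pool, averaged over an animal's 2 arrays, and 0 means equal signal. The pool is 1 control sample, so the spread between wild-type mice does not enter any value. How the Nox4 allele was made is not given in the sources used here, and no probe was named Nox4, so the genotype was not checked on these arrays. Ratios do not show how much of a transcript a tissue holds, and neither the labelled tissue nor the order of expression levels between tissues could be read from them. In whole tissue, fewer cells of a type and less RNA per cell cannot be told apart.

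The 32 arrays held 19815 to 20684 values each. The direction is likely knockout over pool. Whether the arrays with the knockout in Cy3 had already been turned to that direction is not stated. Values beyond 8 in size, called floor values, were all positive with the knockout in Cy5 (920) and all negative with it in Cy3 (924). If the arrays had been turned, the channel at the floor was Cy3 each time. If not, it was the pool each time, in either dye, and never the knockout. Which case holds was not tested. Over all probes of a tissue, Pearson's r was 0.06 to 0.25 between arrays with the knockout in the same dye, and −0.37 to 0.04 between an animal's 2 arrays. With the Cy3 arrays turned, 11 of the 20 member and tissue means and 53 of 106 such means of partner genes took the other sign. "Above" and "below" the pool refer to the signs as deposited, and a mean called turned is the one with the Cy3 arrays turned. If they had been turned already, a turned mean is the difference between the dye orientations divided by 2, and not a knockout ratio. With limma and Benjamini-Hochberg adjustment, no gene of the whole array passed 0.05 within a tissue: 0 of 16729 in brain, 0 of 16825 in kidney, 0 of 16662 in muscle and 0 of 16377 in pancreas. At unadjusted p under 0.05 there were 691, 1562, 1215 and 477 genes. With the Cy3 arrays turned, the numbers past the adjusted threshold were 1, 0, 328 and 2388.

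RefSeq (build GRCm38.p6) gave a promoter window for 4 of the 5 genes, and those of Ctss and Tap1 are shown as 250 bases upstream of the start because both genes are known interferon targets and the data below set Tap1 beside Psmb9. Both are on the + strand, at chr3:95526536-95526785 for Ctss and chr17:34187306-34187555 for Tap1. In the Ctss line the capitals mark a match to the letters of an interferon-stimulated response element (GAAA, any 2 bases, GAAA). In the Tap1 line they mark the stretch shared with Psmb9, a subunit of the immunoproteasome that is transcribed in the opposite direction from a start 226 bases away.
Ctss: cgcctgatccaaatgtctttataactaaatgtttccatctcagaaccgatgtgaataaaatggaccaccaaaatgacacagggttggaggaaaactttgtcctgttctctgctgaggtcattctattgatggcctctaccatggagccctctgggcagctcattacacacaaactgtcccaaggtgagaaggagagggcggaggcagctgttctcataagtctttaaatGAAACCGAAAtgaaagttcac
Tap1: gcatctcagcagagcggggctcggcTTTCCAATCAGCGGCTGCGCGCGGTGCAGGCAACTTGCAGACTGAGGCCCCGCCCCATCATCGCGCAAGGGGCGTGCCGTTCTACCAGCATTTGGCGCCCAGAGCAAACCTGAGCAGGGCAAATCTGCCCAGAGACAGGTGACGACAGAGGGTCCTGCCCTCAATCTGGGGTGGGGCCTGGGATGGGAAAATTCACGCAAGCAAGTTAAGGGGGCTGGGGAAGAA
Both strands were searched, and the match in Ctss begins 21 bases before the start. These letters occurred in 2.98% of 32851 windows of that length, and those of a gamma-activated site (TTC, any 3 bases, GAA) in 7.02%. The windows of C1qb, Lcn2 and Tap1 held neither set of letters and that of Ctss held only the first, which says only that these letters are not in these windows.

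In muscle, Ctss, C1qb and Lgals1 lay below the pool in all 4 animals. Against all genes measured in all 4 muscle samples, 12% lay below in all 4. In pancreas this held for Lcn2 (5.15% of all genes), in kidney for Tap1 (9.85%) and in brain for none of the 5 (6.73%). For Lcn2 it no longer held when each probe was averaged over the dye pair before the probes were combined. Since the genes were picked on these ratios, the shares are given beside the counts and nothing is read from them.

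**Figure D1:**
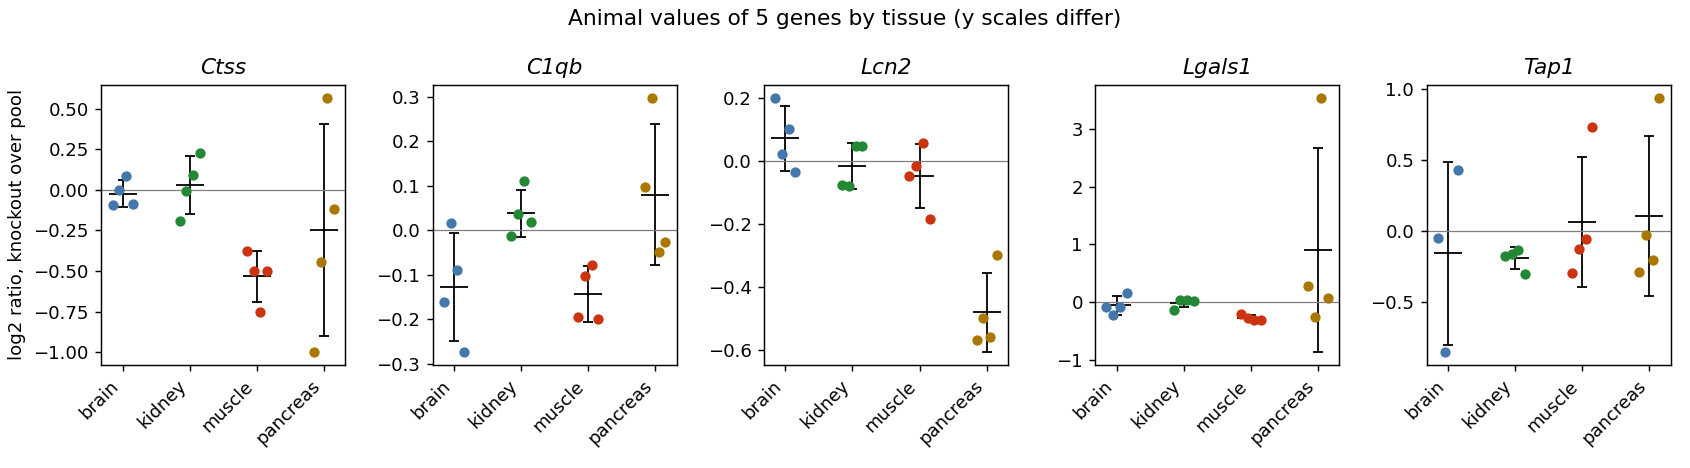
Log2 ratio of knockout over pool (y, scale differs between panels) for each gene in brain, kidney, muscle and pancreas (x). Points are animals (mean of 2 dye-swapped arrays), horizontal ticks are means and error bars are the SD between animals. Ctss has its lowest mean in muscle (−0.53), Lcn2 in pancreas (−0.48), and the pancreas of animal 3 stands at 3.54 for Lgals1.

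Ctss had its lowest ratio in muscle. There the values of animals 1 to 4 were −0.38, −0.50, −0.75 and −0.50, a mean of −0.53 ± 0.16 (SD, n = 4), or 1.45-fold lower than the pool. In brain they were −0.09, −0.00, 0.08 and −0.08, with a mean of −0.02 ± 0.08 (SD, n = 4) and a turned mean of 0.12. In kidney they were −0.19, −0.01, 0.09 and 0.23, with a mean of 0.03 ± 0.18 (SD, n = 4) and a turned mean of 0.28. The muscle values lay below every brain and every kidney value, by a mean of 0.51 and 0.56. The SE was 0.23 for each, pooled over the 4 tissues, and carries the wide pancreas spread. Non-overlap of this kind was found for 7.41% of all genes between brain and muscle and for 6.81% between kidney and muscle. In pancreas the animals stood at −0.998, −0.45, 0.57 and −0.12, a mean of −0.25 ± 0.65 (SD, n = 4; turned 0.66), and this range covered those of brain, kidney and muscle.

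The arrays of Ctss in muscle split by dye. With the knockout in Cy5 the 4 arrays read 0.27, 0.18, 0.56 and 0.30, a mean of 0.33. With the knockout in Cy3 they read −1.03, −1.18, −2.06 and −1.30, a mean of −1.39. All Cy5 arrays were above 0 and all Cy3 arrays below, an arrangement found (in either order) for 12.8% of genes in muscle. The Cy3 arrays were also the lower ones on average in brain (−0.14 against 0.10), kidney (−0.25 against 0.31) and pancreas (−0.91 against 0.41). With the Cy3 arrays turned, the muscle mean was 0.86 in place of −0.53, and on the Cy5 arrays alone 0.33. Turned, muscle lay above all brain and kidney values, by 0.74 and 0.58 on average. The tissues still did not overlap but the order was the opposite. The share of all genes without overlap after the turn was not computed. The part of the dye in the muscle ratio was not tested.

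**Figure D2:**
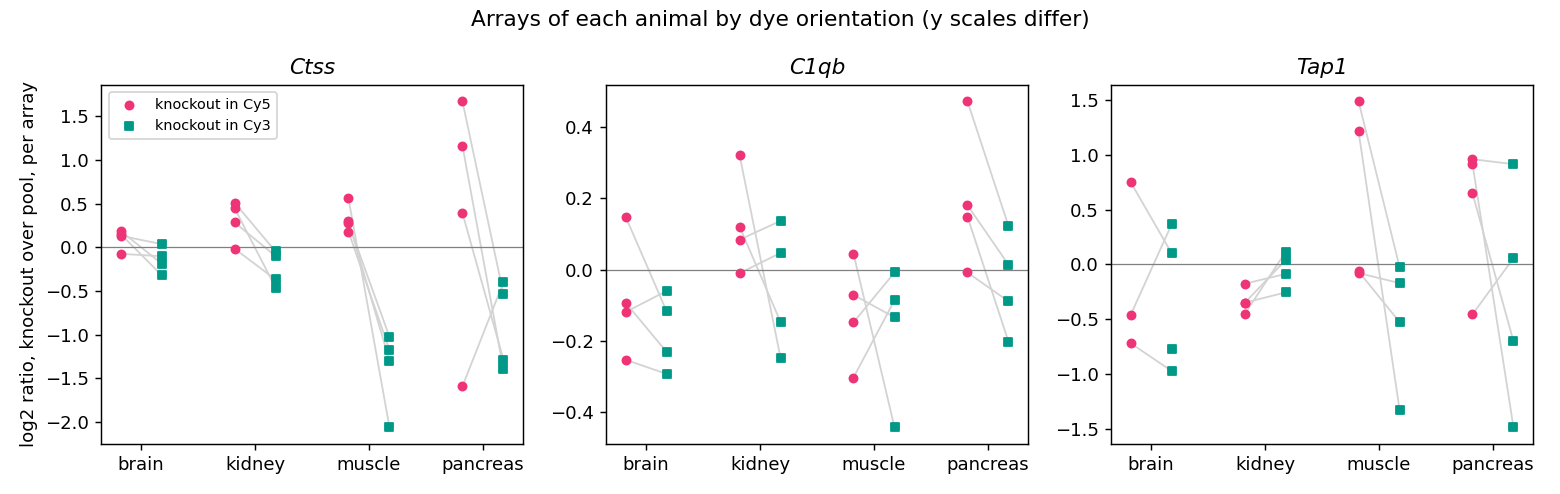
Log2 ratio of each array (y, scale differs between panels) for Ctss, C1qb and Tap1 by tissue (x). Circles are arrays with the knockout in Cy5 and squares arrays with the knockout in Cy3, and a line joins the 2 arrays of an animal. In muscle the Ctss circles lie above 0 and the squares below, with means of 0.33 and −1.39, while C1qb has both means below 0.

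C1qb ratios were small throughout. In muscle the animals stood at −0.19, −0.10, −0.08 and −0.20, a mean of −0.14 ± 0.06 (SD, n = 4), and 7 of 8 arrays were below 0. In contrast to Ctss, both dye orientations were on the same side of 0 on average (−0.12 with the knockout in Cy5 and −0.17 in Cy3), which makes the turned mean 0.02. In brain, where microglia are the main source of C1q, the values were −0.16, 0.02, −0.09 and −0.27, a mean of −0.13 ± 0.12 (SD, n = 4), again with 7 of 8 arrays below 0 and a turned mean of 0.05. Animal 2 alone was above the pool there, and brain and muscle overlapped.

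Kidney C1qb stood at −0.01, 0.04, 0.11 and 0.02, with a mean of 0.04 ± 0.05 (SD, n = 4; turned 0.09). Pancreas stood at 0.10, 0.30, −0.05 and −0.03, with a mean of 0.08 ± 0.16 (SD, n = 4; turned 0.12). All muscle values were below all kidney and all pancreas values; kidney exceeded muscle by 0.18 and pancreas exceeded it by 0.22 (SE 0.08 for each). Such a gap was present for 4.49% of all genes between muscle and pancreas and for 6.81% between kidney and muscle. With the Cy3 arrays turned, muscle overlapped both.

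The 3 chains of C1q are encoded side by side and assembled together, so C1qa and C1qc are the nearest relatives of C1qb. C1qa in muscle was below the pool in 4 of 4 animals, at −0.08, −0.07, −0.04 and −0.20, a mean of −0.10 ± 0.07 (SD, n = 4). C1qc was not: its animals stood at 0.03, 0.13, −0.11 and −0.02, with a mean of 0.01 ± 0.10 (SD, n = 4). In brain the means of C1qa and C1qc were −0.01 and 0.03. C1qb had the lowest mean of the 3 chains in both tissues only with the signs as deposited: turned, the means of C1qb, C1qa and C1qc were 0.02, 0.16 and −0.07 in muscle and 0.05, 0.03 and 0.04 in brain.

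Other macrophage genes lay on both sides of the pool in muscle. No probe carried the symbols Cd68, Csf1r, Adgre1 or Cd14, which define macrophages. Tyrobp, an adaptor of myeloid receptors, was below the pool in 4 of 4 animals (mean −0.12 ± 0.10 SD, turned −0.30), Itgam, an integrin chain of myeloid cells, averaged −0.26 ± 0.65 (SD, n = 4; turned −0.11), and Aif1, a calcium-binding protein of microglia and macrophages, averaged 0.05 (turned −0.08). Of 23 macrophage and microglia markers other than Ctss and C1qb, 14 were below the pool in muscle, with a median of −0.04, where 58.4% of all genes were below with a median of −0.02. Turned, the list had 11 of 23 below (median 0.02) and all genes 50%; on Cy5 arrays alone 10 of 23 were below. In brain 11 of 23 were below, in kidney 10 of 23 and in pancreas 10 of 21, and the medians were 0.00, 0.02 and 0.01; turned, 9 of 23, 12 of 23 and 10 of 21 were below. In limma 0 of these markers passed the adjusted threshold in any tissue, and at unadjusted p under 0.05 there were 1 in brain, 2 in muscle and none in kidney and pancreas. The 2 in muscle, named after their values were seen, went opposite ways: Ccr2, the monocyte chemokine receptor, had a mean of 0.64 ± 0.36 (SD, n = 4; turned −0.00) and Ptprc, the pan-leukocyte phosphatase CD45, −0.43 ± 0.33 (SD, n = 4; turned 0.52).

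**Figure D3:**
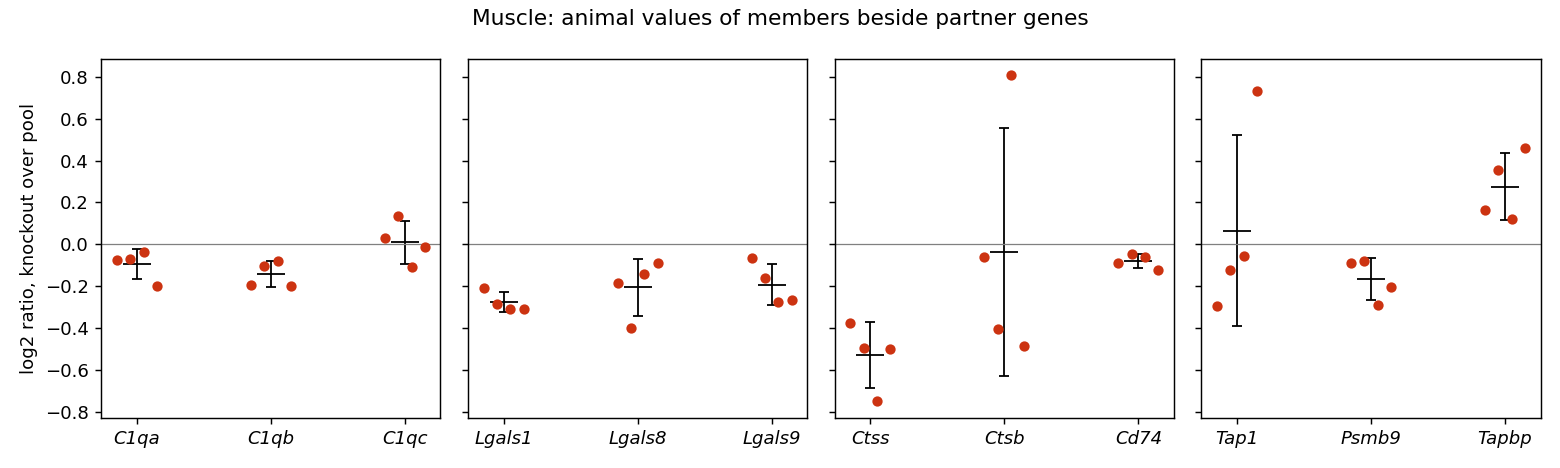
Animal values in muscle (y, log2 ratio of knockout over pool) for members beside partner genes (x). Points are animals, horizontal ticks are means and error bars are the SD between animals. C1qb and C1qa lie below 0 in all 4 animals and C1qc on both sides of it.

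Ctss also had relatives on the array. Cst3, the secreted inhibitor cystatin C, averaged −0.02 in muscle (turned 0.10), and the lysosomal proteases Ctsb, Ctsd and Ctsl averaged −0.04, 0.11 and 0.18 (turned 0.14, −0.01 and 0.03). Cd74, the invariant chain that cathepsin S trims, was below the pool in 4 of 4 muscle samples by a small amount (mean −0.08 ± 0.03 SD, turned −0.11). Of 22 cathepsins and partners besides Ctss, 11 were above and 11 below the pool in muscle (turned 12 and 10). Of 11 MHC class II genes other than members, 7 were below, with a median of −0.03 (turned 8 of 11, median −0.07). In muscle 58.4% of all genes were below, or 50% turned.

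Lgals1 in muscle, averaged over its 2 probes, was below 0 on 8 of 8 arrays, a count reached by 0.552% of genes there. Neither probe alone reached that count. The animals stood at −0.21, −0.28, −0.31 and −0.31, a mean of −0.28 ± 0.05 (SD, n = 4), or 1.21-fold lower than the pool. The Cy5 arrays averaged −0.16 and the Cy3 arrays −0.39, and with the Cy3 arrays turned the mean became 0.11. Kidney Lgals1 stood at −0.14, 0.03, 0.04 and 0.02, above all muscle values by a mean of 0.27 (SE 0.58, which carries the wide pancreas spread). Kidney and muscle did not overlap for 6.81% of all genes. The kidney mean of Lgals1 was −0.01, turned also −0.01, and turned it overlapped muscle. Brain Lgals1 stood at −0.08, −0.22, −0.09 and 0.16, with a mean of −0.06 ± 0.16 (SD, n = 4; turned 0.01), and overlapped muscle.

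The 2 probes of Lgals1 separated in muscle. The first probe read −0.50, −0.47, −0.80 and −0.43 in the 4 animals, a mean of −0.55 ± 0.17 (SD, n = 4), with 7 of 8 arrays below 0. The second read 0.09, −0.10, 0.19 and −0.18, a mean of −0.00 ± 0.17 (SD, n = 4), with 5 of 8 arrays above. The probes differed by 0.55, a difference exceeded by 6.33% of 1897 genes with 2 probes in muscle, whose median difference was 0.12. Which probe reports the transcript was not tested, and their sequences were not used here.

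In pancreas the mean of Lgals1, 0.91 ± 1.77 (SD, n = 4), rested on animal 3 (turned 0.84). Its animals stood at 0.27, −0.26, 3.54 and 0.08. The first probe of animal 3 carried a value beyond 8 in size, a floor value of the kind that was positive only on Cy5 arrays (920 values) and negative only on Cy3 arrays (924 values) across the array set. With floor values taken as missing the pancreas mean was −0.17, and without animal 3 it was 0.03. The second probe, which held no such value, averaged −0.00 ± 0.08 (SD, n = 4) in pancreas.

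**Figure D4:**
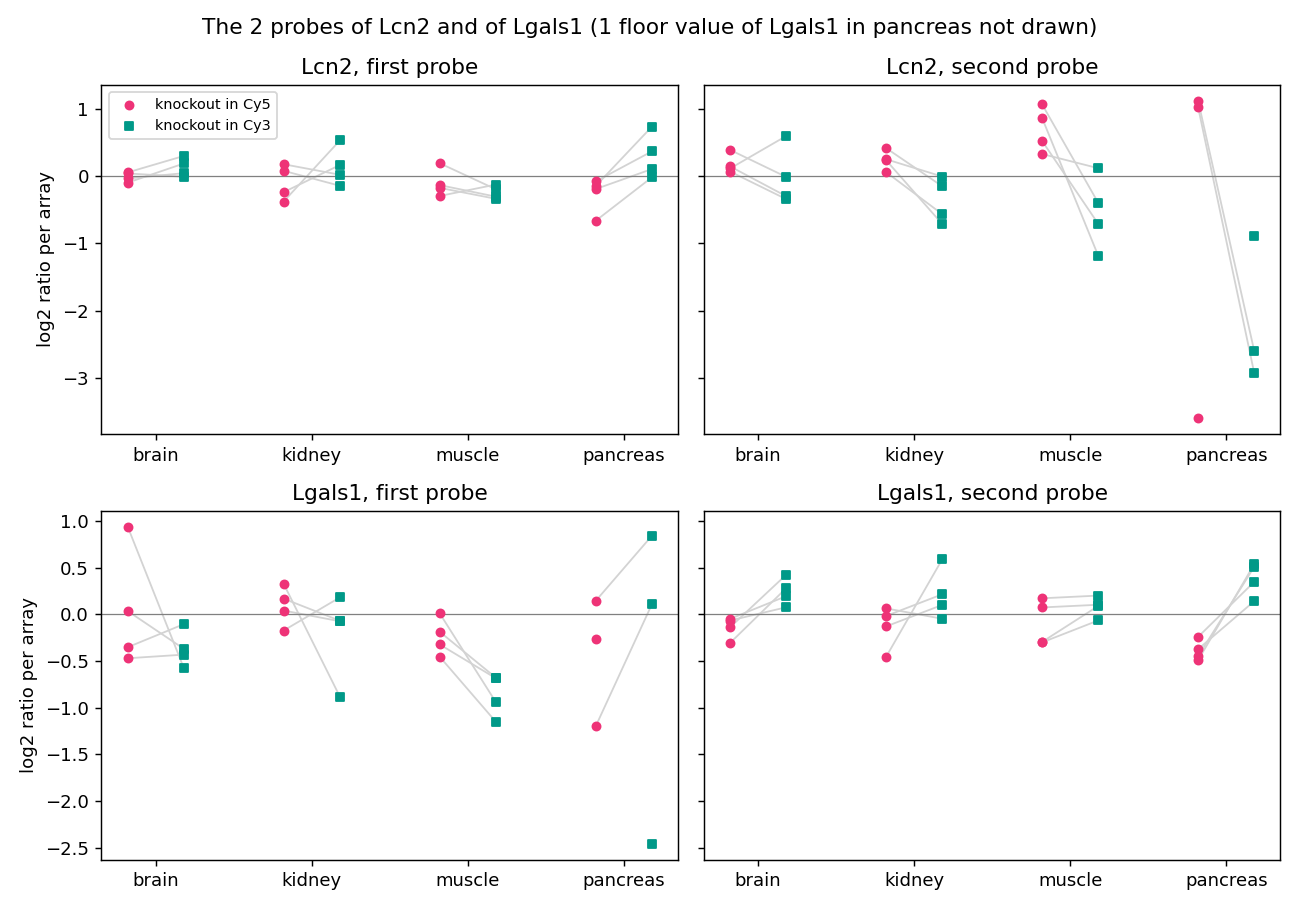
Log2 ratio of each array (y) for the 2 probes of Lcn2 and of Lgals1 by tissue (x). Circles are arrays with the knockout in Cy5, squares arrays with the knockout in Cy3, lines join the arrays of an animal, and 1 floor value is not drawn. The 2 probes of Lgals1 separate in muscle, with means of −0.55 and −0.00, and those of Lcn2 in pancreas.

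Other galectins were followed in muscle, where 58.4% of all genes lay below the pool (50% turned). Lgals8 and Lgals9, which carry a pair of carbohydrate-binding domains each, were below in 4 of 4 animals, with means of −0.21 ± 0.14 and −0.19 ± 0.10 (SD, n = 4); limma gave adjusted p = 0.661 and 0.659. Both split by dye: Lgals8 averaged 0.39 on Cy5 and −0.80 on Cy3 arrays (5 of 8 below, turned 0.59), and Lgals9 −0.50 and 0.11 (6 of 8 below, turned −0.30). Lgals3, the galectin most used as a marker of activated macrophages, averaged −0.11 (turned −0.23). Of 6 galectin genes besides Lgals1, 5 were below the pool in muscle, with a median of −0.13, and 3 of 6 with the Cy3 arrays turned (median 0.02). Lgals3bp, a secreted glycoprotein that binds galectin 3, averaged −0.01 in muscle (turned 0.27) and −0.26 ± 0.11 (SD, n = 4) in kidney, where it was below in 4 of 4 animals (turned −0.03; limma adjusted p = 0.511).

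Lcn2 stood apart in pancreas. Its animals were at −0.57, −0.50, −0.56 and −0.30, a mean of −0.48 ± 0.13 (SD, n = 4), or 1.39-fold lower than the pool. Brain stood at 0.20, 0.02, 0.10 and −0.03, with a mean of 0.07 ± 0.10 (SD, n = 4; turned 0.01). Kidney and muscle averaged −0.01 ± 0.07 and −0.05 ± 0.10 (SD, n = 4; turned 0.09 and 0.34). The pancreas values lay below those of the other tissues, by a mean of 0.55, 0.47 and 0.43 against brain, kidney and muscle (SE 0.08 for each). Pancreas did not overlap brain for 3.74% of all genes and did not overlap kidney for 3.42%; the share for muscle was 4.49%.

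The evenness of those 4 values hides a wide spread between arrays and probes. Only 5 of the 8 pancreas arrays were below 0 for Lcn2, and with the Cy3 arrays turned the mean was 0.08 and pancreas overlapped the other tissues. The first probe read 0.30, −0.04, −0.34 and 0.15, a mean of 0.01 ± 0.27 (SD, n = 4). The second probe had values on 6 of 8 arrays and both arrays for animals 2 and 4 only, at −0.95 and −0.74. On single arrays it ran from −3.60 to 1.12, so that the animal values mix arrays with 1 probe and arrays with 2. Averaging each probe over the dye pair before combining probes gave −0.21 ± 0.35 (SD, n = 4). Animal 1 then rested on the first probe alone, at 0.30, so not all 4 animals lay below the pool. The 2 probe means differed by 0.86, and 0.901% of 1775 genes with 2 probes in pancreas had a larger difference. Those genes had at least 3 animals for each probe and no floor value. The second Lcn2 probe had 2 animals, so the share is not a like comparison.

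Other genes of neutrophil granules were followed in pancreas, where 49.6% of all genes lay below the pool (51.8% turned). S100a8 and S100a9, the subunits of calprotectin, averaged −0.28 ± 1.61 and 0.28 ± 0.51 (SD, n = 4; turned 0.39 and 0.89), and Ltf, which binds iron as lactoferrin, averaged 0.06 (turned −0.08). Of 13 neutrophil genes besides Lcn2, 10 were above the pool in pancreas, with a median of 0.08, and 0 passed limma there (0 at unadjusted p under 0.05). Turned, 8 of 13 were above, the median was also 0.08, and 2 passed, where 14.6% of all genes did. Among acute phase proteins, Hp, which binds free haemoglobin, averaged 0.00 in pancreas (turned 0.20), and Saa3, a serum amyloid made in inflamed tissue, was below in 4 of 4 animals (mean −0.28 ± 0.28 SD, turned −0.11). Saa3 was also below on 8 of 8 kidney arrays, with a mean of −0.12 ± 0.05 (SD, n = 4), where 0.899% of all genes were below on all 8 (turned −0.07). Of 20 acute phase genes besides Lcn2, 12 were below the pool in pancreas, with a median of −0.03, and of 7 other lipocalins 4 were, with a median of −0.02 (turned 14 of 20 and 4 of 7).

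Tap1 was below the pool in each kidney, at −0.17, −0.16, −0.13 and −0.30, a mean of −0.19 ± 0.08 (SD, n = 4), or 1.14-fold lower. All 4 Cy5 arrays were below 0 (mean −0.33), the Cy3 arrays averaged −0.05, and with these turned the mean stayed negative at −0.14. It was the only member whose lead value kept its sign under that turn. A negative mean keeps its sign there whenever the Cy5 arrays are the lower ones on average, so this reports the order of the dyes. In muscle Tap1 stood at −0.30, −0.12, −0.05 and 0.73, and in pancreas at −0.28, −0.03, −0.20 and 0.94. In both, 3 animals lay below the pool and animal 4 above, which brought the means to 0.07 ± 0.46 and 0.11 ± 0.56 (SD, n = 4; turned 0.58 and 0.41). Brain gave 3 animals, at −0.05, −0.85 and 0.43, since 1 array of animal 3 had no value (mean −0.16 ± 0.64, SD, n = 3; turned 0.01). No pair of tissues was free of overlap for Tap1 with the signs as deposited. Turned, kidney and muscle did not overlap, and the share of all genes for this was not computed. As deposited, its kidney mean differed from brain, muscle and pancreas by less than 1 SE of those differences.

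Genes of the class I pathway around Tap1 were also followed. Psmb9, which starts from the opposite end of the promoter shown for Tap1, averaged 0.00 ± 0.08 (SD, n = 4) in kidney and −0.03, −0.17 and 0.08 in brain, muscle and pancreas. Turned, its means were 0.11 in kidney and 0.03, 0.38 and 0.41 in the others. In muscle Psmb9 was below the pool in 4 of 4 animals while Tapbp, the tapasin that bridges Tap1 to class I molecules, was above in 4 of 4 (0.28 ± 0.16, SD, n = 4; turned 0.15; limma adjusted p = 0.596). Above the pool in all 4 muscle samples were 6.85% of all genes. B2m, the light chain of class I molecules, and H2-K1, a heavy chain, averaged 0.05 and −0.05 in muscle (turned 0.05 and 0.08). Of 16 class I loading genes besides Tap1, 11 were above the pool in kidney, with a median of 0.02, and 10 of 16 were below in brain and in pancreas. Turned, 10 of 16 were above in kidney, 5 of 16 below in brain and 8 of 16 in pancreas. Of all genes, 46.6% were below in brain, 48.5% in kidney and 49.6% in pancreas (turned 45.4%, 50.6% and 51.8%).

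Interferon genes were followed because Ctss and Tap1 are known to respond to interferon. Irf1, a transcription factor that interferon gamma induces, averaged 0.00 in muscle (turned 0.02), and Irf7, a factor of the type I response, −0.18 (turned −0.32). Of 34 interferon-induced genes besides members, 20 were below the pool in muscle (median −0.06) and 14 in kidney (median 0.01). With the Cy3 arrays turned, 12 and 18 were below. Of all genes, 58.4% were below in muscle and 48.5% in kidney, or 50% and 50.6% turned. In brain 3 of the 34 lay below at unadjusted p under 0.05, where 1.89% of all genes did so, namely the chemokine Cxcl9, the antiviral enzyme Oas2 and the RNA-editing enzyme Adar, with means of −0.27, −0.44 and −0.37 (turned 0.07, 0.31 and −0.17); they were named after their values were seen.

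Complement genes other than C1qb were below the pool in 16 of 21 cases in muscle, with a median of −0.08. With the Cy3 arrays turned it was 9 of 21, with a median of 0.04. Of all genes there, 58.4% were below as deposited and 50% turned. None of the 21 passed limma there and 0 had an unadjusted p under 0.05. Serping1, the C1 inhibitor, varied widely in muscle (−0.26 ± 0.99, SD, n = 4; turned 1.58). It was below the pool in all 4 brains, at −0.56, −0.44, −0.07 and −0.65 (mean −0.43 ± 0.25, turned 0.06, limma adjusted p = 0.773). Genes of Toll-like receptor and NF-kB signalling were below in 19 of 30 cases in muscle, with a median of −0.07 (turned 18 of 30, median −0.02).

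**Figure D5:**
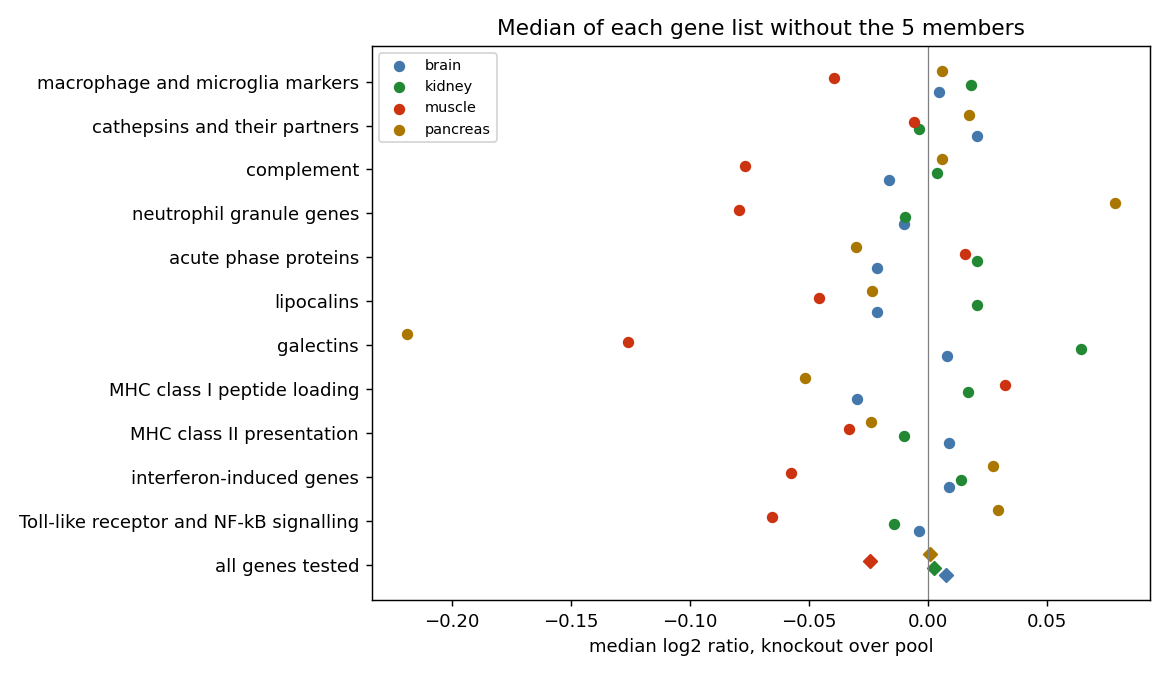
Median log2 ratio of knockout over pool (x) of each innate gene list (y) without the 5 members, with all genes tested in the bottom row. Colours are tissues. In muscle the complement list stands at −0.08 and the galectins at −0.13, against −0.02 for all genes; with the Cy3 arrays turned these were 0.04, 0.02 and 0.00.

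Together the 11 innate lists held 192 genes measured in muscle besides the members, of which 59.4% were below the pool against 58.4% of all genes, or 48.4% against 50% turned. At unadjusted p under 0.05 in limma there were 9 below and 3 above, or 6.25% against 7.29% of all genes (3.69% below and 3.61% above), and 0 after adjustment. Turned, 3 of the 192 passed the adjusted threshold (1.56% against 1.97% of all genes), and 22 of 183 in pancreas (12% against 14.6%). With the signs as deposited, the shares at unadjusted p under 0.05 in brain, kidney and pancreas were 3.11%, 5.18% and 2.19%. Of all genes they were 4.13%, 9.28% and 2.91%. Between the 4 tissues, limma's moderated F test called 4 of 16257 genes (0.0246%), none of them in a list or a member, and at unadjusted p under 0.05 it marked 8.74% of 183 innate genes against 8.68% of all genes. The 4 tissues come from the same 4 animals, and with the animal as a block there were 0 calls. Without the block, and with the Cy3 arrays turned, there were 185. The 4 calls became 85 without animal 1, 0 without animal 2, 2 without animal 3 and 3 without animal 4, and 45 with floor values taken as missing.

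Across the 16 animal and tissue values, the genes whose ratios ran most like each member were searched among 8087 symbols. For Ctss they were Fbxw8 (Pearson r = 0.87) and Tle1 (0.87), for C1qb Ace (0.84) and Atp6v1a (0.83), and for Lcn2 Msh3 (0.84) and Mrpl21 (0.84). Those of Lgals1, Vars2 and Tada2a (both 0.98), each carried a floor value, as Lgals1 did. Among the members themselves r ran from −0.52 to 0.54. These values share animals and the pool and are given as a description.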

How the data were processed

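The authors deposited a log2 ratio for each probe of each 2-colour cDNA array. Total RNA (20 µg) had been labelled indirectly with Cy3 or Cy5, per the labels' protocols. That the logarithm is to base 2 is an inference from how large the biggest values are. How the arrays were scanned, corrected for background, normalised and filtered is not given in the sources used here. The median ratio of an array ran from −0.07 to 0.05. Precision is limited by how many arrays there are. A supplied platform annotation named the probes (12771 had a symbol). Probes of a symbol were averaged on each array, then the 2 arrays of an animal, both being required.

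Within a tissue, limma 3.58.1 (R 4.3.3) (lmFit, eBayes) gave a two-sided test of the mean ratio of at least 3 animals against 0; between tissues it fitted all 16 values, with a moderated F test. Benjamini-Hochberg adjustment ran over all genes at 0.05. The scripts were tested on simulated data. SD is the spread between animals and SE is limma's moderated error, which for a difference between tissues is pooled over all 4 tissues. The 4 tissues come from the same animals, per the labels; deviations of the same animal in different tissues correlated at r from −0.07 to 0.09 over 24 pairs.

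The members, 23 gene lists (442 entries, 248 on the array) and 39 partner genes (27 on the array) were chosen with earlier results of these data known. Named were the members, the partners, any called list gene and, for each member, the 2 symbols of highest r over 16 values, which could not be applied to Tap1 with 15. Alternatives covered sign, floor values, centring, quantile scaling, dye orientation, probes, animals, weights and blocking. The turned values of partners, lists, overlaps and opposite-side pairs, the other alternatives for list counts in muscle, and the averaging of probes after the dye pair were added after seeing the data.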

Additional observations from a re-analysis of the deposited data

Results flagged for a closer look

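In 9 of 154 sets of 4 animals, 1 animal stood far from the others by Dixon's gap test, which chance alone would give in about 1 in 20 sets. Among the members, Lgals1 in kidney stood at −0.135 in animal 1 (others 0.02 to 0.04), and Lgals1 in pancreas at 3.54 in animal 3 (others −0.26 to 0.27), the animal with the floor value. The pancreas of animal 3 also stood out for Vars2, a gene named for its likeness to Lgals1, at 8.45 (others −0.53 to 0.70).

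Among the partner genes, C1qc in kidney was −0.030 in animal 4 (others 0.10 to 0.12) and Itgam in kidney −0.16 in animal 2 (others 0.08 to 0.11). Lgals3 in kidney was −0.96 in animal 1, where the others ran from 0.40 to 0.58. Lgals3bp was −0.83 in the brain of animal 4 (others 0.06 to 0.19) and −1.34 in the pancreas of animal 2 (others −0.20 to −0.09). S100a8 in brain was −0.75 in animal 4 (others −0.11 to 0.01).

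In 4 of 223 gene and tissue pairs all animals of one tissue lay above the pool and all of the other below, against 1.23% of 93981 such pairs over all genes. Lgals8 averaged 0.12 in brain and −0.21 in muscle, a difference of 0.32. Psmb8, an immunoproteasome subunit, averaged −0.07 in muscle against 0.06 in kidney and 0.12 in pancreas, which makes kidney minus muscle 0.14 and muscle minus pancreas −0.19. Msh3 averaged 0.08 in brain and −0.14 in pancreas, a difference of 0.22. These 4 differences were not tested. With the Cy3 arrays turned, none of the 4 pairs lay on opposite sides in all animals: Lgals8 averaged 0.21 in brain and 0.59 in muscle, Psmb8 0.14 in muscle, −0.01 in kidney and 0.51 in pancreas, and Msh3 0.12 in brain and 0.24 in pancreas.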

How the results depend on the processing

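For the 20 member and tissue means, 244 alternatives were computed: 40 of them changed the sign of a mean, 11 of these with the Cy3 arrays turned, 5 on Cy5 and 6 on Cy3 arrays alone, and 8 with an animal left out. Centring changed no sign. Requiring all 4 animals entered only the counts of genes, so its 20 member means could not differ from those reported. Of the 5 means with the same sign in all animals, the sign changed for Ctss in muscle (0.86 with the Cy3 arrays turned and 0.33 on Cy5 arrays alone), C1qb in muscle (0.024 turned), Lgals1 in muscle (0.11 turned) and Lcn2 in pancreas (0.082 turned and 0.015 with the first probe alone). The number of genes limma called was 0 in each tissue and 4 between tissues. With floor values missing it was 1 in kidney and 45 between tissues; with the Cy3 arrays turned 1 in brain, 328 in muscle, 2388 in pancreas and 185 between tissues; with quantile scaling 1 in brain and 0 between tissues. Cy5 arrays alone gave 1 in brain, 1 in pancreas and 187 between tissues, and Cy3 arrays alone 1 in muscle. Probes taken singly gave 2 between tissues, all 4 animals required 14, and tissue weights 27. All 8 arrays fitted singly gave 7 in kidney and 2 in muscle, and robust eBayes 1 in kidney. With the animal as a replicate block, the count between tissues was 0. Leaving out 1 animal in turn gave 0 to 1 in brain and in muscle, 0 in kidney and pancreas, and 0 to 85 between tissues (85 without animal 1). The causes were not tested.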

Other observations

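Markers of other blood and vessel cells, picked out after their values were seen, were uneven in the tissues where the members stood out. In pancreas, Cpa3 and Tpsb2, proteases of mast cell granules, were above the pool in 4 of 4 animals, with means of 0.73 ± 0.65 and 0.34 ± 0.21 (SD, n = 4; 0.15 and 0.32 with the Cy3 arrays turned). They were the 2 mast cell markers measured there, above 0 on 7 and 6 of 8 arrays, and 5.42% of all genes were above the pool in all 4 pancreases. Neither passed limma's adjusted threshold. In muscle, Cd3d, a chain of the T cell receptor complex, was below the pool in 4 of 4 animals (−0.37 ± 0.24, SD, n = 4; turned −0.51) and the co-receptor Cd28 above on 8 of 8 arrays, as were 1.56% of all genes there (0.88 ± 0.43, SD, n = 4; turned 0.08). Of 9 T cell markers in muscle, 5 were above and 4 below, turned likewise.

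Ccr2 and Cd28 had both dye orientations on the same side of 0 in muscle, at 0.64 and 0.64 for Ccr2 and 0.96 and 0.79 for Cd28 (Cy5, then Cy3), whereas Ptprc averaged 0.09 and −0.94. Of 9 endothelium markers in muscle, 6 were below the pool (turned 5), where 58.4% of all genes were below (turned 50%). The receptor Tek and the cadherin Cdh5 were above in 4 of 4 animals (0.60 ± 0.33 and 0.42 ± 0.22, SD, n = 4). Turned, their means were −0.27 and −0.03. Of 7 fibroblast markers, 4 were above and 3 below (turned 3 and 4). With the signs as deposited, no gene of these lists passed limma's adjusted threshold.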
